A study of Mus musculus with 1615 samples.

Results

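In single-cell libraries sorted from the colon of mesenchymal reporter mice, 69 of 1615 cells carried transcripts of simple epithelium above the minimums given next (4.27%, exact Clopper-Pearson 95% interval 3.34% to 5.38%). These cells were chosen by 4 transcripts, each in CPM (the reads of a gene divided by all gene reads of that cell, times 1000000). A cell was kept when Epcam was at least 50 CPM, Krt8 at least 100 CPM, Cdh5 under 100 CPM and Notch3 under 200 CPM. Epcam is an adhesion molecule and Krt8 a keratin of simple epithelia, while Cdh5 is a cadherin of endothelium and Notch3 a receptor of mural cells. Because the choice used the measured values, everything that sets the chosen cells against other cells is given as a description, without a test.

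The study made an inventory of mouse smooth muscle and neighbouring cells by sorting single cells into plates and sequencing each well with Smart-seq2, a full-length method without molecular identifiers. It covered 13 plates, 11 mice and 5 reporter lines, and all of its cells are labelled as colon, although the extraction text names heart. The labels give every mouse an age of 8 to 30 weeks, and they name 2 mice as female although the design text speaks of males only. Neither the sort gates nor the crosses and zygosity are stated in the labels. The dual line ACTA2GFP:CSPG4dsRED, with reporters named for a smooth muscle actin and a proteoglycan of pericytes and muscle, came from 1 male (20GG79:6) and 2 females (20GG79:1 and 20GG95:3). The other lines came from males only, with PDGFRbGFP in 3 mice (17E61:24, 18CB155:7 and 19CB4:5), PDGFRaH2bGFP in 2 (18CB39:3 and 18CB109:10), ACTA2GFP in 2 (19CB38:5 and 19CB34:7) and CSPG4dsRED in 1 (19CB27:3).

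The lining of the colon is a single layer of epithelium folded into crypts. Stem cells with the receptor Lgr5 sit at the crypt base, their daughters divide on the way up, and they mature mainly into absorptive colonocytes, which exchange chloride for bicarbonate through Slc26a3, or into goblet cells, which secrete the gel mucin Muc2. Acta2, Cspg4, Pdgfra and Pdgfrb are known instead from muscle, pericytes and fibroblasts of the wall beneath. Epcam, which chose the cells, and Muc2 and Slc26a3, which part them into classes further on, carry the account, so the sequences around their start sites are shown. Each runs from 250 bases before to 50 bases after the start (RefSeq, GRCm38.p6). Capitals mark CACCTG, an E-box read by the Snail and Zeb repressors of epithelial genes, and TTTATG, a core of the sites of intestinal CDX factors, on either strand (CAGGTG and CATAAA on the reverse).
Epcam: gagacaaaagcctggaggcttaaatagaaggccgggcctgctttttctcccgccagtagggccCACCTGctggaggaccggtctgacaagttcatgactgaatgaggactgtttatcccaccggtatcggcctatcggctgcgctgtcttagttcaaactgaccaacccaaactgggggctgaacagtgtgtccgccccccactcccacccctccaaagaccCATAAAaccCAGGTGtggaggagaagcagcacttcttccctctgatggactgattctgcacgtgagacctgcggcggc
Muc2: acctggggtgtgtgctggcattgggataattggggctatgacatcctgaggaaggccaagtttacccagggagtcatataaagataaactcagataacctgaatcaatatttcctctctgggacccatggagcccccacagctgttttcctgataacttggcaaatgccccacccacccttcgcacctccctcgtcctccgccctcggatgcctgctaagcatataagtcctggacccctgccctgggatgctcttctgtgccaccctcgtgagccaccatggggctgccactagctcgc
Slc26a3: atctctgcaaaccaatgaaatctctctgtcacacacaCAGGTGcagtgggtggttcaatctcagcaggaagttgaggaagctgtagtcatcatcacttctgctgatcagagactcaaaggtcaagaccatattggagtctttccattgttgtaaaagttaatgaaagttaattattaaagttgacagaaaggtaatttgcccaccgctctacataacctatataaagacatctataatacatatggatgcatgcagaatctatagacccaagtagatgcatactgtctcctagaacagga
The Epcam window (chr17:87635729-87636028, plus strand) held 2 copies of CACCTG and 1 of TTTATG, the Slc26a3 window (chr12:31437969-31438268, plus strand) 1 copy of CACCTG, and the Muc2 window (chr7:141690090-141690389, plus strand) neither. Across 32851 such windows of mouse genes, 20.2% held CACCTG and 11.9% held TTTATG, and a match describes letters only, not a bound site. The genes themselves span chr17:87635979-87651129, plus strand (ENSMUSG00000045394) for Epcam, chr7:141690340-141754693, plus strand (ENSMUSG00000025515) for Muc2 and chr12:31390871-31473917, plus strand (ENSMUSG00000001225) for Slc26a3 in the GENCODE M21 annotation of GRCm38, in which Slc26a3 starts upstream of the RefSeq window.

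The chosen cells held 48095 to 882687 gene counts (median 131212), against a median of 243442 in the 1008 other cells of the same 8 mice. They were shallower, yet more genes were detected in them, with a median of 6842 genes against 5613. Each well is its own library, no pair of the 1615 columns was identical, and no doublet caller was run. Intervals on shares count cells as if they were independent, although cells of 1 mouse are not. Between mice the shares ran from 0 of 505 to 5 of 9 cells, so the intervals cover counting error only and not that spread. Reads copied by PCR are not independent molecules either. CPM is not corrected for gene length, so levels are compared for 1 gene across cells and not between genes.

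The epithelial label held for most but not all of the 69 cells. All 6 epithelial markers, which are Epcam, Krt8, the galectin Lgals4, the membrane mucin Muc13, the antibody carrier Pigr and the claudin Cldn7, were detected in 62 of them. Their summed CPM was then set against the summed CPM of 7 lists of 5 markers each for smooth muscle, fibroblasts, endothelium, pericytes, immune cells, glia and mesothelium. In 51 cells the epithelial sum was the largest, and these are called epithelial-led. Epcam and Krt8 also chose the cells, so their part of this sum was set by the rule; by the 4 other markers alone the sum was the largest in 48 cells. In the other 18, fibroblast markers (11 cells) or smooth muscle markers (7 cells) led, so the label does not describe their leading transcripts. Of those 18, 15 came from 20GG79:6 and 1 each from 17E61:24, 18CB155:7 and 20GG79:1.

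The summed epithelial markers ran from 2585 to 24395 CPM in epithelial-led cells (median 11935), and from 333 to 10701 CPM in cells led by fibroblast or muscle markers (median 1649), against a median of 9.97 CPM in the other cells of the same mice. The summed smooth muscle markers had medians of 114 CPM in epithelial-led cells, 8228 CPM in the muscle- or fibroblast-led cells and 444 CPM in the other cells. For fibroblast markers these medians were 192, 13818 and 3052 CPM. The 2 kinds of cell were split by these sums, so their distance in stromal transcripts follows from the split, and their epithelial sums overlapped. The split was not sharp: in 6 epithelial-led cells the epithelial sum was less than 2 times the largest other sum, and in 3 of the others it was more than 0.5 times that sum. Endothelial markers summed to a median of 31.3 CPM in epithelial-led cells, against 7708 CPM in the 319 cells with Cdh5 at 100 CPM or more. Immune and mesothelial sums had medians of 0 in epithelial-led cells, and pericyte and glial sums had medians of 27.9 and 3.37 CPM.

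**Figure D1:**
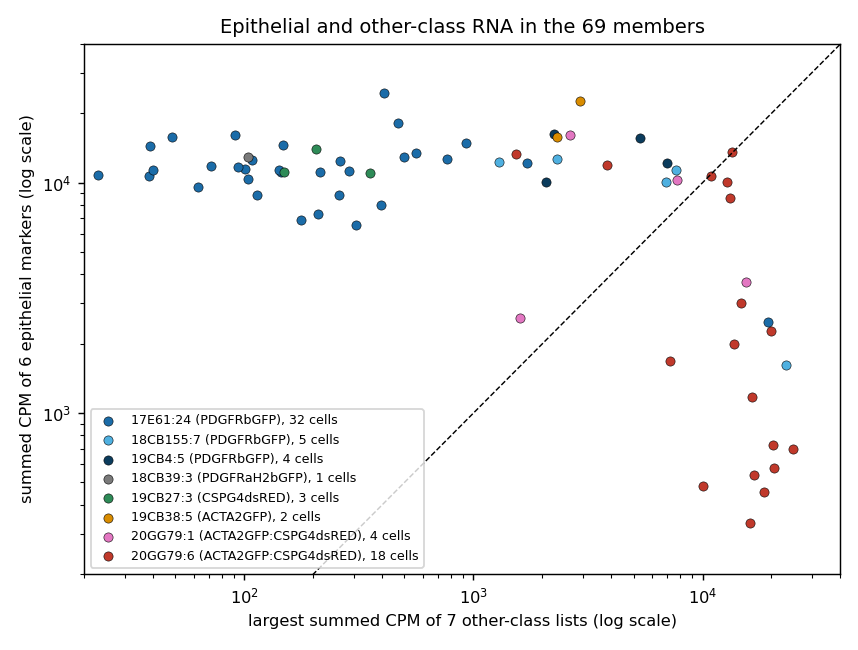
Each point is 1 of the 69 cells, with the largest summed CPM among the 7 other marker lists on the x axis and the summed CPM of the 6 epithelial markers on the y axis, both on log scales and coloured by mouse. The dashed line marks equal sums: 51 cells lie above it and 18 below it, and 15 of those below are from mouse 20GG79:6.

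At the edges of the rule, the lowest Epcam inside was 54.8 CPM and the highest among cells that failed on Epcam was 48.6 CPM. For Krt8 these neighbours were 112 CPM inside and 57.7 CPM outside. The highest Cdh5 inside was 44 CPM with 115 CPM next outside, and for Notch3 the pair was 113 and 390.1 CPM. The epithelial markers were not at 0 elsewhere: Epcam was detected in 23.7% of the other cells of the same mice, Lgals4 in 49.1% and Pigr in 36.1%. In cells with Cdh5 at 100 CPM or more, an endothelial class that should lack them, the shares were 20.7%, 42.9% and 24.5% at a median depth of 239837 counts, so detection alone at this level is read as background. The level of Epcam was set by the rule. Averaged per mouse, it was 1633 ± 438 CPM in epithelial-led cells (SD, n = 8 mice, 696 to 2120.0), against 124 CPM in other cells (0.33 to 903). The highest of the other-cell values came from 19CB38:5, where only 6 other cells remained and 3 of them were led by epithelial markers.

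The cells came from 8 mice, 8 plates and all 5 lines, in unequal shares. Mouse 17E61:24 of PDGFRbGFP gave 32 of 199 cells (16.1%, interval 11.3% to 21.9%), and the dual-line male 20GG79:6 gave 18 of 242 (7.44%, 4.47% to 11.5%). The remaining 5, 4, 4, 3, 2 and 1 came from 18CB155:7 (of 9 cells), 19CB4:5 (of 80), 20GG79:1 (of 359), 19CB27:3 (of 117), 19CB38:5 (of 8) and 18CB39:3 (of 63). None was found among 505 cells of the dual-line female 20GG95:3 (upper limit 0.728%), 28 of 18CB109:10 (upper limit 12.3%) and 5 of 19CB34:7 (upper limit 52.2%).

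By line, the dual line held 22 of 1106 cells (1.99%, 1.25% to 3.0%), PDGFRbGFP 41 of 288 cells (14.2%, 10.4% to 18.8%), ACTA2GFP 2 of 13 cells (15.4%, 1.92% to 45.4%), CSPG4dsRED 3 of 117 cells (2.56%, 0.532% to 7.31%) and PDGFRaH2bGFP 1 of 91 cells (1.1%, 0.0278% to 5.97%). The epithelial-led cells were 6 in the dual line and 39 in PDGFRbGFP, so most of the cells in the dual line were of the fibroblast- or muscle-led kind. These shares were not tested between lines, because the gates are not known and mice within a line differed, from 1.11% to 7.44% with 0 in the third in the dual line. On some plates position moved with them. Mouse 17E61:24 had 2 plates, of which 1 held all 32 (26.9% of 119 cells) and the other held 0 of 80. On the plate that held them, rows L to P gave 32 of 34 cells and rows A to D gave 0 of 85. On the plate of 18CB155:7, rows L to P gave 5 of 6. Other plates were uneven too, in rows that differed. In rows A to D, E to K and L to P, 20GG79:6 gave 0 of 46, 10 of 106 and 8 of 90 cells. In the same order 20GG79:1 gave 3 of 84, 0 of 163 and 1 of 112. For 19CB4:5 the counts were 1 of 71, 1 of 3 and 2 of 6, and for 19CB27:3 they were 0 of 76, 1 of 12 and 2 of 29. The chosen cell of 18CB39:3 was the only cell in rows A to D, with 0 of 62 in rows L to P. Both of 19CB38:5 sat in rows E to K (2 of 6). Whether rows were filled from a different gate is not stated in the labels, so row and gate cannot be told apart.

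Beyond the markers of the rule, the chosen cells expressed a broad set of genes of the gut lining at far higher levels than the other cells of the same mice. Over the 3 mice with at least 5 chosen cells, each weighted equally, 648 of 4641 genes at 50 CPM or more were at least 4-fold higher in them (14.0%). The minimum of 50 CPM was set on the chosen cells alone. Genes thus entered only through the group in which a higher level was then counted. The largest ratio belonged to Prss30, a serine protease, at 585 CPM against 0.231 CPM. Entpd8, a surface enzyme that degrades nucleotides, followed with 342 against 0.201 CPM. This order rests on values near 0 in the other cells. As log2 ratios with 1 CPM added to both sides, Prss30 stood at 8.90, Myo15b at 8.73 and Entpd8 at 8.16. On that scale Myo15b passed Prss30 without 18CB155:7 (7.52 against 7.38) and without 20GG79:6 (10.43 against 9.58), but not without 17E61:24 (8.47 against 9.12). The 20 genes with the largest ratios also held the polarity protein Crb3 (144 against 0.10 CPM), the intestinal surface antigen Gpa33 (250.4 against 0.243 CPM) and the membrane mucin Muc3 (954 against 1.53 CPM). E-cadherin, the product of Cdh1 and the junction protein that defines epithelia, averaged 314 CPM in the chosen cells and 0.622 CPM in the others. The microvillus protein villin (Vil1) averaged 521 against 1.66 CPM, and the claudin Cldn3 888 against 3.1 CPM. Pooled over all cells of the 8 mice with equal weight, the ratio on the log2(CPM + 1) scale was smaller for 18 of the 20, with Prss30 at 374 against 1.57 CPM, Cdh1 at 263 against 3.22 CPM and Muc3 at 868 against 12.8 CPM. Myo15b, Clrn3, Map7, BC030870, Pls1, Cblc, Tmem171, Slc44a4, Slc5a8, B4galnt2, Ugt2b34 and D630002J18Rik completed the 20.

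All 20 were higher in the chosen cells of each of the 3 mice, though by differing amounts, and 18CB155:7 had just 4 other cells. Cdh1 averaged 277 CPM in chosen cells of 17E61:24, 482 CPM in those of 18CB155:7 and 184 CPM in those of 20GG79:6, against 0.134, 0.693 and 1.04 CPM in the other cells of the same mice. For Prss30 the chosen cells averaged 346, 1308 and 102 CPM, and the other cells 0.157, 0 and 0.536 CPM. For both genes the lowest average was in 20GG79:6, where 15 of 18 cells were led by fibroblast or muscle markers. Tmem171 was lower in 18CB155:7 (37.3 CPM) than in 20GG79:6 (97.3 CPM). Junction and keratin genes were at least 4-fold higher for 17 of the 27 that reached 50 CPM, out of 36 listed. Brush border genes, which build and anchor the microvilli, were higher for 13 of 16, and epithelial transcription factors for 11 of 14. Genes listed for dissociation and stress reached that ratio in 1 of 14. Of the 6 epithelial markers, 4 reached it. These counts describe the lists, which name epithelial genes, beside the 14.0% over all genes, and all of them rest on genes at 50 CPM or more in the chosen cells.

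Within the epithelial-led cells, keratins were abundant, with Krt19 at 12.9 to 6283 CPM with a median of 1877 and Krt18 at 0 to 6499 CPM with a median of 894. The desmosomal plaque protein Dsp was detected in 46 of 51 of these cells and the brush border cadherin Cdhr5 in 49 of 51. Jup, a plaque protein that muscle and endothelium also use, was not lower elsewhere, with medians of 154 CPM in epithelial-led cells and 414 CPM in the other cells. Tjp1, the zonula occludens protein shared with endothelium, was detected in 56.9% of epithelial-led cells and 54.6% of the other cells.

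The cells were parted into goblet-type and absorptive-type by Muc2 and Slc26a3. A cell was called goblet-type when Muc2 was at least 500 CPM and Slc26a3 under 100 CPM, and absorptive-type when Slc26a3 was at least 100 CPM and Muc2 under 500 CPM. Of the 69 cells, 19 were goblet-type, 21 absorptive-type, 4 had both and 25 had neither. Among the 51 epithelial-led cells the numbers were 14 goblet-type in 3 mice, 18 absorptive-type in 7 mice, 3 with both in 2 mice and 16 with neither in 4 mice. These classes are ranges of 2 genes rather than discrete types: 10 cells had Muc2 between 250 and 1000 CPM and 4 had Slc26a3 between 50 and 200 CPM. Lists of 27 goblet and 36 absorptive genes, which include Muc2 and Slc26a3, were read in both classes at different sums. In epithelial-led cells the goblet list summed to 16714 to 98132 CPM in goblet-type and 561 to 9410 CPM in absorptive-type cells. The absorptive list summed to 2746 to 14785 CPM and 16087 to 38260 CPM in the same order. Of the epithelial-led goblet-type cells, 12 came from 17E61:24 and 1 each from 20GG79:6 and 19CB27:3. Absorptive-type cells were spread more widely, with 6 in 17E61:24, 3 each in 18CB155:7 and 19CB4:5, 2 each in 19CB27:3 and 19CB38:5, and 1 each in 18CB39:3 and 20GG79:6. Of the 16 with neither, 11 came from 17E61:24, 3 from 20GG79:1 and 1 each from 19CB4:5 and 20GG79:6.

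**Figure D2:**
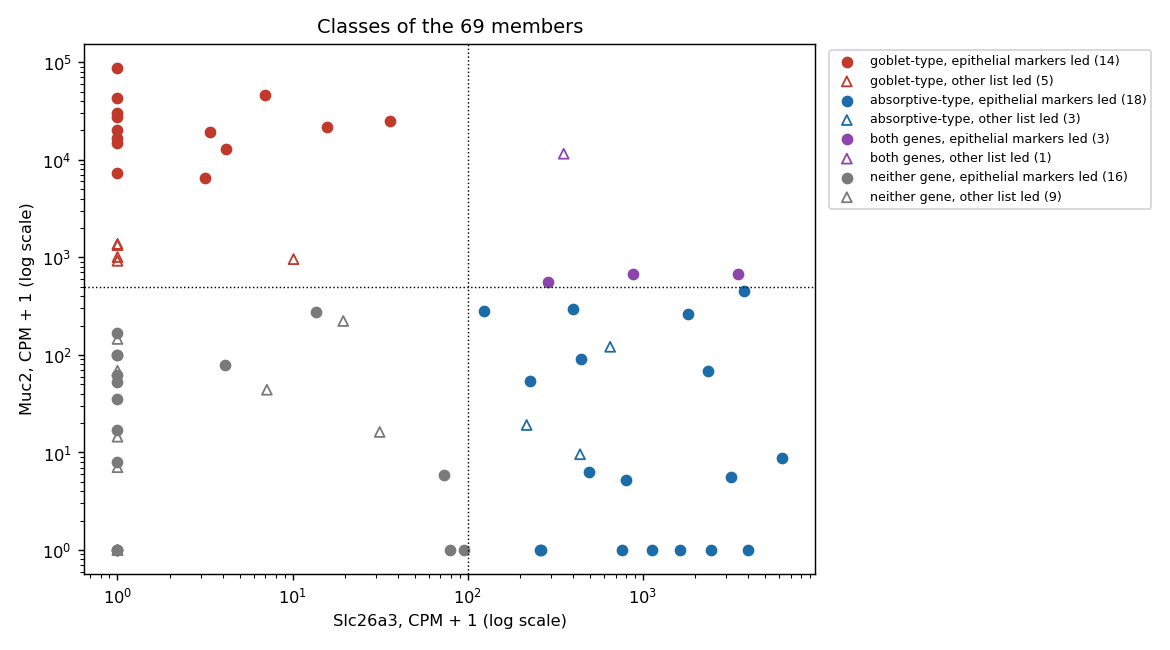
Muc2 (y axis) against Slc26a3 (x axis) in the 69 cells, each as CPM + 1 on a log scale, with dotted lines at 500 CPM and 100 CPM. Filled points are the 51 epithelial-led cells and triangles the 18 led by another list; epithelial-led goblet-type cells reach 6494 to 87200.2 CPM of Muc2, well above the cells led by other lists that pass the Muc2 line, apart from 1 with 11546 CPM.

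In the epithelial-led goblet-type cells, Muc2 ran from 6494 to 87200.2 CPM with a median of 21054. The absorptive-type and remaining cells had medians of 4.95 and 25 CPM. Muc2 was also detected in 30.2% of the other cells of the same mice and 34.8% of the cells with Cdh5, at medians of 0, so a low Muc2 value is not read as goblet expression. Other genes of the secretory pathway were uneven. Agr2, a disulfide isomerase of the goblet cell endoplasmic reticulum, had a median of 2822 CPM in goblet-type cells, 31.7 CPM in absorptive-type cells and 543 CPM in cells with neither. Ern2, the stress sensor of mucus-secreting cells, had a median of 756 CPM in goblet-type cells, 0 CPM in absorptive-type cells and 2.3 CPM in cells with neither, and the transcription factor Creb3l1 had medians of 615, 12.7 and 141 CPM. In the test between classes given further on, Ern2 passed, Agr2 and Creb3l1 did not (adjusted p = 0.0664 and 0.66 by edgeR), and the mucin glycosyltransferases Galnt12 and Gcnt3 had log2 fold changes of -0.38 and -0.45. Spdef, the transcription factor that drives goblet maturation, was detected in 12 of 14 goblet-type cells (0 to 1846 CPM with a median of 639), 3 of 18 absorptive-type cells and 2 of 16 cells with neither. Atoh1, which commits progenitors to the secretory fate, was detected in 11 of 14 goblet-type, 3 of 18 absorptive-type and 3 of 16 remaining cells.

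Secreted goblet products were more uneven than the mucin itself. Fcgbp, which binds into the mucus gel, was present in 14 of 14 goblet-type cells but ran from 17.9 to 12936 CPM with a median of 126. The trefoil peptide Tff3 ran from 0 to 3152 CPM with a median of 186, the mucus protein Clca1 from 0 to 7256 CPM with a median of 35.2, and the lectin Zg16 from 0 to 4852 CPM with a median of 265. Tff3 and Zg16 also reached 2401 and 3068 CPM in single absorptive-type cells, and all 3 cells with both classes of marker held Zg16, up to 5912 CPM. Krt7 and the membrane mucin Muc4 were higher in goblet-type cells, with medians of 1014 and 874 CPM, against 0 and 0 CPM in absorptive-type cells. Of the 27 genes of the goblet list, 24 were detected in at least 50% of the goblet-type cells, 5 in at least 50% of the absorptive-type cells and 9 in at least 50% of the cells with neither. The cells are split by Muc2 itself, so these values describe the classes and are not a test of them.

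**Figure D3:**
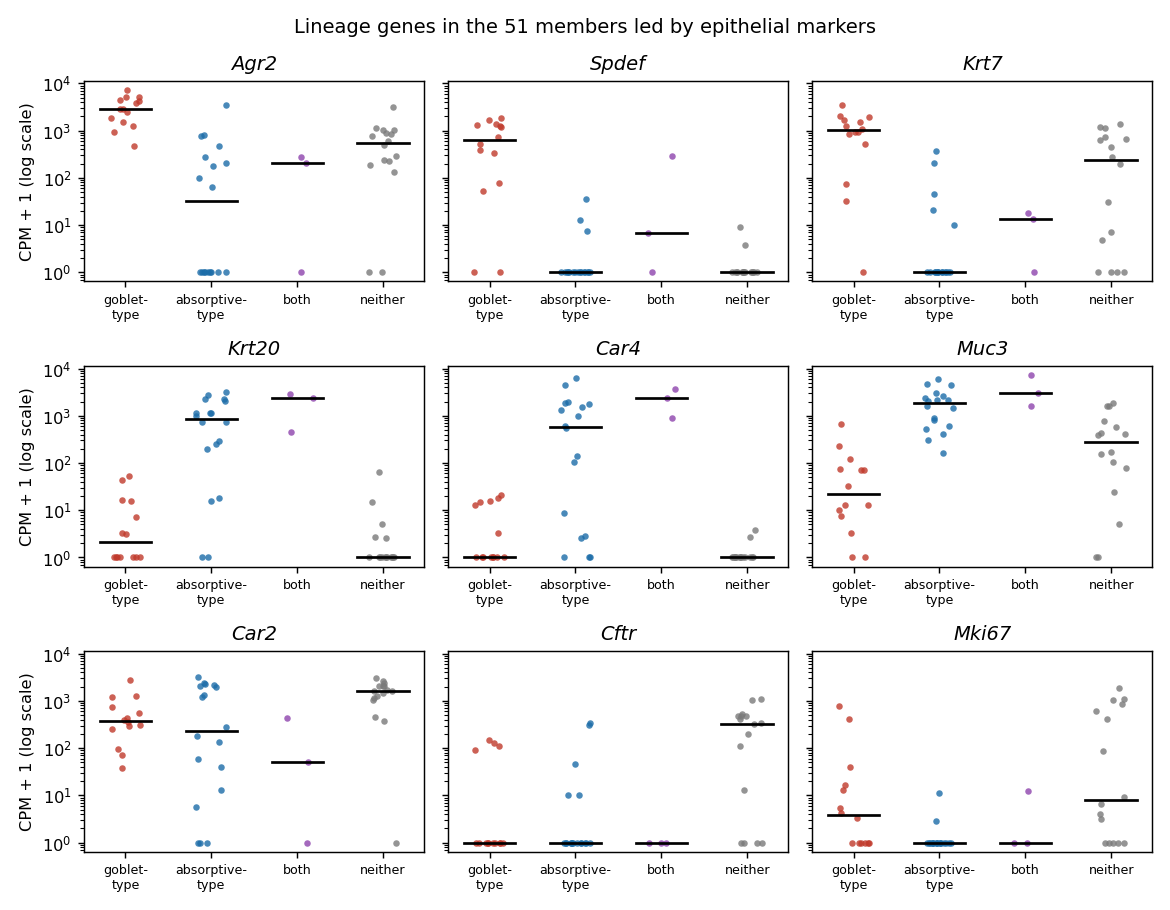
CPM + 1 on a log scale for 9 genes in the epithelial-led cells, with goblet-type, absorptive-type, both and neither side by side and a bar at each median. Agr2, Spdef and Krt7 sit highest in goblet-type cells, Krt20, Car4 and Muc3 in absorptive-type cells and in the 3 with both, and Car2 and Cftr in cells with neither (Car2 medians 372, 229 and 1631 CPM); Mki67 is detected in 8 of 14 goblet-type, 2 of 18 absorptive-type and 11 of 16 cells with neither.

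Absorptive-type cells carried the transport and surface genes of mature colonocytes. In the epithelial-led cells, Krt20, a keratin of differentiated surface epithelium, had a median of 1.08 CPM in goblet-type cells, 867 CPM in absorptive-type cells and 0 CPM in cells with neither. The carbonic anhydrases Car1 and Car4, which hydrate carbon dioxide for ion exchange, had medians of 1842 and 572 CPM in absorptive-type cells and 40.6 and 0 CPM in goblet-type cells. The guanylin precursor Guca2a had a median of 264 CPM in goblet-type cells, 1139.5 CPM in absorptive-type cells and 71.7 CPM in cells with neither. The brush border genes Muc3, Cdhr5 and Eps8l2 had absorptive-type medians of 1828, 1275 and 785 CPM, against goblet-type medians of 21.5, 124 and 25.9 CPM. Lypd8, a surface protein that keeps bacteria from the epithelium, had a median of 4040.3 CPM, against 419 CPM in goblet-type cells and 1210.3 CPM in cells with neither. The sodium-proton exchanger Slc9a3 was detected in 13 of 18 absorptive-type cells and 0 of 14 goblet-type cells. The proton pump Atp12a was high in single cells only, detected in 4 of 18 absorptive-type cells and up to 5917 CPM.

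Averaged per mouse over the 7 mice with epithelial-led absorptive-type cells, Slc26a3 was 1467 ± 852 CPM (SD, n = 7 mice, 258 to 2509.9), and Krt20 was 1074 ± 976 CPM (SD, n = 7 mice, 0 to 2703). Lypd8 was 4554 ± 2414 CPM (SD, n = 7 mice, 1388 to 9138) and the adhesion molecule Ceacam1 2539 ± 725 CPM (SD, n = 7 mice, 1422 to 3605), the steadiest of these 4 relative to its mean. Car1 was 1723 ± 1589.5 CPM (SD, n = 7 mice, 0 to 3754) and the drug-metabolising enzyme Cyp2c55 1550.3 ± 1475 CPM (SD, n = 7 mice, 187 to 4474), each with an SD near its mean. The water channel Aqp8 was at 0 in 1 or more mice and reached 3739.9 CPM in another. The averages thus differed widely between animals. The single cell of 18CB39:3 stood apart, with Slc26a3 at 258 CPM but Krt20, Car1, Car4, Ceacam20 and Aqp8 at 0, in a library of 643277 counts. With 1 to 6 cells a mouse, the spread between mice and the spread between cells cannot be told apart.

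Among the epithelial-led classes, the summed crypt base and cycling genes had their highest medians in the 16 cells with neither marker. The crypt base list summed to a median of 2123 CPM in them, against 888 CPM in goblet-type and 949 CPM in absorptive-type cells, and 13 of its 21 genes were detected in at least 50% of them. The list was not particular to epithelium. Its median was 1040 CPM in the 18 cells led by fibroblast or muscle markers. In the other cells of the same mice it was 405 CPM, with a highest sum of 10300 CPM. Cftr, the chloride channel of the crypt, was detected in 12 of 16 cells with neither marker (0 to 1090.0 CPM with a median of 330.2), against 4 of 14 goblet-type and 5 of 18 absorptive-type cells. The potassium channel Kcnq1 was detected in 13 of 16 of them and the surface glycoprotein Cd44 in 15 of 16, at medians of 138 and 260.1 CPM. The sodium-potassium-chloride importer Slc12a2 was shared with goblet-type cells, at medians of 148 CPM in cells with neither and 146 CPM in goblet-type cells, and had a median of 0 CPM in absorptive-type cells. The carbonic anhydrase Car2 and the sulfotransferase Sult1a1 were also higher in cells with neither than in the goblet-type and absorptive-type cells. The median of Car2 was 1631 CPM and that of Sult1a1 1117 CPM, against 372 and 68.6 CPM in goblet-type cells and 229 and 48.9 CPM in absorptive-type cells. Both stood on the absorptive list and not on the crypt list, so the lists did not part the cells cleanly. The absorptive list summed to a median of 9808 CPM in cells with neither, against 4206 CPM in goblet-type and 25873 CPM in absorptive-type cells.

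The stem cell receptor Lgr5 was rare. It was detected in 8 of 51 epithelial-led cells, 3 of 16 of those with neither marker, 3 of 14 goblet-type and 2 of 18 absorptive-type, and the highest values were 517 CPM in a cell of 20GG79:1 and 209.8 CPM in a cell of 17E61:24. Cycling genes were concentrated in a few cells. Their summed CPM lay between 7216 and 11022 in 6 of the 16 cells with neither marker, all from 17E61:24, and the next cell of that class had 1774 CPM. In those 6, the proliferation antigen Mki67 ran from 409 to 1916 CPM. A goblet-type cell of the same mouse had a cycling sum of 9129 CPM with Mki67 at 795 CPM and Muc2 at 7258 CPM. The goblet-type cell of 19CB27:3 had a cycling sum of 3662 CPM, with Mki67 at 403 CPM and Muc2 at 30199 CPM. Goblet-type cells in wells P5 of 17E61:24 and J16 of 20GG79:6 had sums of 3303 and 2556 CPM, with Mki67 at 0 and 39.3 CPM. Muc2 and cycling transcripts thus occurred together in more than 1 library. In absorptive-type cells the cycling sum did not pass 375 CPM (median 134). Depth moved with the cycling sum in part, since the 6 cells held 71508 to 830929 gene counts against a median of 157248 in epithelial-led cells, and its part in the result was not tested.

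Transcription factors of the intestine were present in every class. Cdx1 was detected in 44 of 51 epithelial-led cells, at medians of 601 CPM in goblet-type, 201 CPM in absorptive-type and 1046 CPM in cells with neither. Hnf4a, a nuclear receptor of gut and liver epithelium, was detected in 44 of 51, Klf5 in 45 of 51 and Elf3 in 51 of 51. Klf4, on the goblet list because goblet cells need it, was higher in absorptive-type cells (median 1055 CPM) than in goblet-type cells (293 CPM), and lowest in cells with neither (15.8 CPM). Foxa1 and Foxa2, forkhead factors of secretory cells, were detected in 12 of 14 and 8 of 14 goblet-type cells, against 7 of 18 and 1 of 18 absorptive-type cells. Of the positional factors, the posterior Hoxb13 was detected in 30 of 51 epithelial-led cells and Cdx2 in 24 of 51. Gata4, a factor of the upper bowel and of the heart, was detected in 0 of 51, which allows a share of up to 5.88% of cells with a read.

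Rarer lineages were not found as cells of their own. The enteroendocrine list of 20 genes summed to a median of 7.82 CPM and at most 248 CPM in epithelial-led cells, and the tuft list of 15 to a median of 4.31 CPM with 1 goblet-type cell at 1168 CPM. Of 14 genes of the small bowel, 7 had no read in any epithelial-led cell, among them sucrase-isomaltase (Sis), lactase (Lct) and the fatty acid carrier Fabp1. The exceptions were the phosphatase Alpi, in 4 of 18 absorptive-type cells up to 1272 CPM, and the retinol carrier Rbp2, in 5 of 18 up to 878 CPM. With 51 cells, 0 allows a share of up to 5.88%.

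Of genes by which the epithelium meets microbes and the stroma, 11 of the defence list and 19 of the signal list entered the test between goblet-type and absorptive-type cells given next, and none passed. Over all genes 20 of 9026 passed (0.222%), so a count of 0 in lists of this size says little about them. Nlrp6, an inflammasome sensor, was detected in 37 of 51 epithelial-led cells, with medians of 7.55 CPM in goblet-type, 126 CPM in absorptive-type and 346 CPM in cells with neither. The protease inhibitor Wfdc2 had medians of 39, 22.3 and 298 CPM in those 3 classes. The oxidase Duox2 was detected in 17 of 51 and reached 4762 CPM in a goblet-type cell, and the antimicrobial lectins Reg3b and Reg3g were detected in 11 of 51 and 8 of 51. Among signals, the EGF family ligands Areg and Hbegf had medians of 132 and 198 CPM in absorptive-type cells, against 6.5 and 0 CPM in goblet-type cells, and their co-receptor Erbb2 230.4 against 0 CPM. Ihh, the hedgehog ligand that epithelium sends to the mesenchyme, was detected in 23 of 51 epithelial-led cells. Among immediate-early genes, Fos had medians of 309.9 CPM in goblet-type, 1766 CPM in absorptive-type and 228 CPM in cells with neither, and the summed dissociation and stress genes 2224, 7409 and 1550.4 CPM. In the per-mouse test between goblet-type and absorptive-type cells, led or not, 0 of 16 of these genes passed (median log2 fold change -0.30), with Fos at a log2 fold change of -0.09. The epithelial-led cells as a whole had a median of 2925 CPM for that sum, against 5349 CPM in the other cells of the same mice. The share of reads from mitochondrial genes, pooled over cells, was 2.9% in epithelial-led cells, against 1.08% in the other cells.

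Goblet-type and absorptive-type cells could be compared over mice in 17E61:24 and 20GG79:6, the only mice with at least 3 cells of each. Counts were summed per mouse and class (18 goblet-type and 9 absorptive-type cells, led or not) and tested with edgeR's quasi-likelihood test with the mouse as a block, which leaves 1 residual degree of freedom. The classes were cut from the same cells by Muc2 and Slc26a3, which got no test, so the test asks which other genes moved with them. Of 9026 genes, 20 passed an adjusted p of 0.05 (0.222%), 7 higher (0.0776%) and 13 lower (0.144%) in goblet-type cells, and 538 had an unadjusted p under 0.05. Fold changes of genes at or near 0 in a class depend on edgeR's prior count. The median log2 fold change over all genes was 0.29. All 20 changed the same way in both mice.

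Higher in goblet-type cells were Spdef, Ern2, Fcgbp and Clca1 of the goblet list, the mucin glycosyltransferase B3gnt7, the ubiquitin ligase subunit Fbxo21 and the surface protein Cd177. Spdef stood at 907 and 96.8 CPM in goblet-type cells of 17E61:24 and 20GG79:6, against 4.01 and 0 CPM in absorptive-type cells (log2 fold change 8.40 ± 1.80 (SE), adjusted p = 0.0204). Ern2 stood at 719 and 60.5 CPM in goblet-type cells of 17E61:24 and 20GG79:6, against 2.0 and 0 CPM in absorptive-type cells (log2 fold change 8.76 ± 2.01 (SE), adjusted p = 0.0347). Both genes were near 0 in absorptive-type cells of each mouse, but far lower in goblet-type cells of 20GG79:6 than in those of 17E61:24. Fcgbp, at 1389 and 24.2 CPM in goblet-type cells of 17E61:24 and 20GG79:6, against 6.01 and 0 CPM in absorptive-type cells, had a log2 fold change of 8.02. Fbxo21 ran the other way between mice, at 68.7 and 741 CPM in goblet-type cells of 17E61:24 and 20GG79:6, against 1.0 and 2.03 CPM in absorptive-type cells. Among epithelial-led cells Fbxo21 was detected in 6 of 14 goblet-type and 8 of 18 absorptive-type cells, at medians of 0 CPM in both. With epithelial-led cells alone its log2 fold change was 4.18 (adjusted p = 0.628 by edgeR). Clca1, B3gnt7 and Cd177 had log2 fold changes of 7.05, 8.13 and 7.47.

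Lower in goblet-type cells were 6 genes of the absorptive list (Cyp2c55, Mep1a, Emp1, Ceacam20, Slc6a14 and Aqp4) and 7 others. The smallest p belonged to Cyp2c55, at 12.5 and 2.42 CPM in goblet-type cells of 17E61:24 and 20GG79:6, against 2187 and 1007 CPM in absorptive-type cells (log2 fold change -7.80 ± 1.26 (SE), adjusted p = 0.000618). Krt20 stood at 4.85 and 0 CPM in goblet-type cells of 17E61:24 and 20GG79:6, against 1159 and 462 CPM in absorptive-type cells (log2 fold change -8.38 ± 1.58 (SE), adjusted p = 0.00818). The brush border protease Mep1a had a log2 fold change of -8.69, the adhesion molecule Ceacam20 -9.82 and the membrane protein Emp1 -7.90. The citrate and succinate carrier Slc13a2, the dipeptidase Dpep1, the carboxylesterase Ces2e, the fatty acid hydroxylase Fa2h and the transporter Abcb6 had log2 fold changes between -9.68 and -7.49. Dmbt1, Slc6a14 and Aqp4 passed as well and are named after their values were seen, with -4.56, -6.84 and -6.48. Of 22 goblet genes tested, 4 were higher and 0 lower, with a median log2 fold change of 5.25 over the list. Of 27 absorptive genes, 0 were higher and 6 lower, with a median of -3.88. No cycling gene of 16 passed (median 3.64), and no smooth muscle gene of 5 did, though their median was 3.78. Of the 6 goblet-type cells of 20GG79:6, 5 were led by muscle or fibroblast markers. Of its 3 absorptive-type cells, 1 was epithelial-led. That cell, in well E5, had Krt20 at 2703 CPM, against 115 and 1.13 CPM in wells P4 and P20. The values of this mouse thus rest on few epithelial-led cells. The calls changed when cells led by muscle or fibroblast markers were left out. With epithelial-led cells alone and at least 1 cell of each class a mouse (14 against 9 cells, 3 mice), 6 genes passed, all lower in goblet-type cells, of which 4 were among the 20. Leaving out the row J cells described next left 1 mouse at the minimum of 3. With a minimum of 1 cell, which adds 19CB27:3 (14 against 11 cells), 0 passed and 706 had an unadjusted p under 0.05, while all 20 kept their direction (log2 fold change 9.12 for Spdef and -8.95 for Krt20). Without the mouse as a block, 0 of the genes passed (403 at an unadjusted p under 0.05).

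On the plate of 20GG79:6, goblet transcripts moved with plate position, most of all in row J. All 6 goblet-type cells of this mouse sat in row J. The cell in well J16 was epithelial-led, with Muc2 at 87200.2 CPM, Agr2 at 5269 CPM and Epcam at 2045 CPM. The 18 other cells of row J had Muc2 at 141 to 1628 CPM with a median of 654, and 11 of them reached 500 CPM. In the 223 cells of the other rows the median was 6.06 CPM and 7 reached 500 CPM. Every cell of row J thus had more Muc2 than the median cell of the other rows. Agr2 and Epcam had medians of 81.5 and 26.5 CPM in those row J cells, against 0 and 1.97 CPM in the other rows. Column 16, which crosses the same well, had Muc2 at 117 to 628 CPM in its 6 other cells (median 184). Muc2 was also raised away from these wells, from 54.6 to 628 CPM in row K and from 94.2 to 626 CPM in column 21. The 5 goblet-type cells of row J other than J16 had Epcam between 54.8 and 153 CPM, close to the minimum of the rule, and fibroblast or smooth muscle sums of 16739 to 24934 CPM. What set the row apart was not tested, and these 5 are counted among the goblet-type cells only where all 69 cells are used, as in the test between classes.

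**Figure D4:**
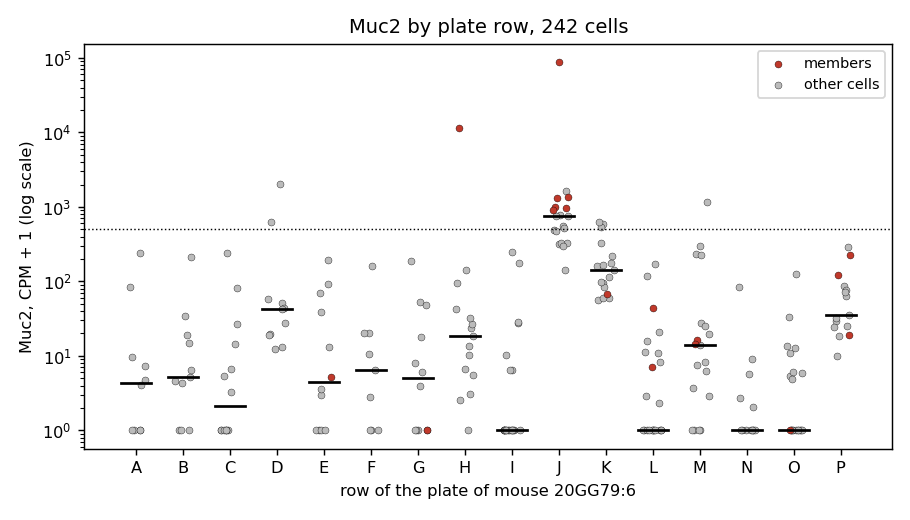
Muc2 as CPM + 1 on a log scale (y axis) by plate row A to P (x axis) in the 242 cells of mouse 20GG79:6, with the chosen cells in red, the others in grey, a bar at each row's median and a dotted line at 500 CPM. The median of row J is the highest of all rows, with J16 at 87200.2 CPM and its 18 neighbours between 141 and 1628 CPM.

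The transcripts for which the reporter lines are named stood above or below the other cells of the same mouse, depending on gene and mouse. In the dual line, the 3 epithelial-led cells of 20GG79:1 had Acta2 at 608, 1172 and 3293 CPM, against a median of 3428 CPM in its other cells. Those of 20GG79:6 had 278, 401 and 2595 CPM, its muscle- or fibroblast-led cells a median of 5002 CPM and its other cells 1524 CPM. Both ACTA2GFP cells of 19CB38:5 had Acta2 under 100 CPM, at 84.6 and 90.4 CPM, against a median of 401 CPM in the 6 other cells. Pdgfrb in PDGFRbGFP cells had medians of 7.93 CPM in the 31 epithelial-led cells of 17E61:24, 77.1 CPM in the 4 of 18CB155:7 and 61.1 CPM in the 4 of 19CB4:5. The other cells of these mice had 3.32, 303 and 23.2 CPM, so the epithelial-led median was below theirs in 18CB155:7 alone. In 17E61:24 the other cells were mostly cells with Cdh5 at 100 CPM or more (134 of 167). Cspg4 in the 3 CSPG4dsRED cells of 19CB27:3 was 0, 34.3 and 88.5 CPM, against a median of 4.32 CPM in its other cells. In the dual line its medians were 77.6 CPM in the epithelial-led cells of 20GG79:1 and 88.5 CPM in those of 20GG79:6, against 28.8 and 45.8 CPM in their other cells. Pdgfra in the single PDGFRaH2bGFP cell of 18CB39:3 was 1.55 CPM, against a median of 0 CPM in the others. Fluorescence of the wells is not in the files used here.

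**Figure D5:**
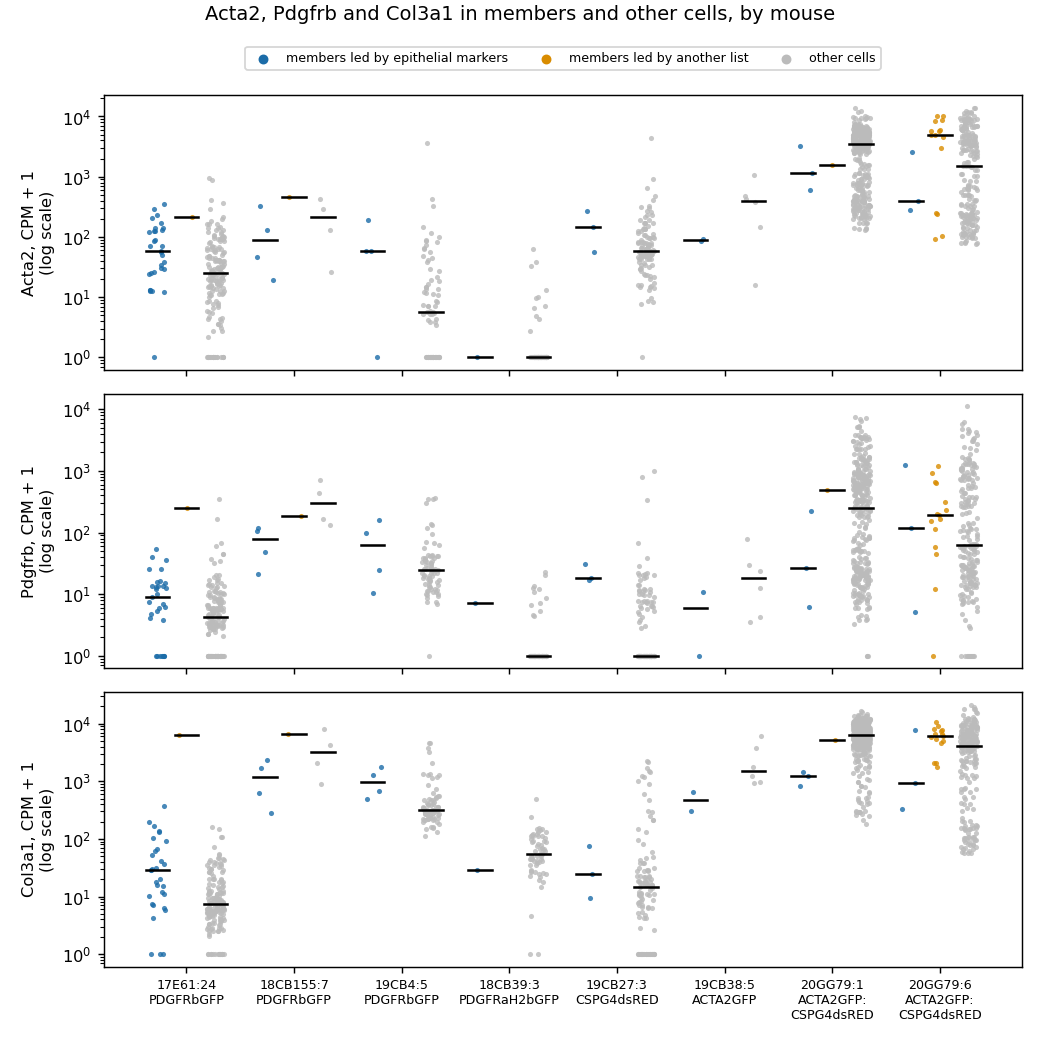
Acta2, Pdgfrb and the fibroblast collagen Col3a1 as CPM + 1 on log scales by mouse, in epithelial-led cells (blue), cells led by fibroblast or muscle markers (orange) and the other cells of the mouse (grey), with bars at medians. In 17E61:24, Col3a1 has a median of 27.7 CPM in epithelial-led cells, while in 20GG79:1 and 20GG79:6 it is 1242 and 924 CPM, below the 6243 and 4047 CPM of their other cells.

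Cells of the dual line were set against those of the other lines in the mice with at least 3 chosen cells, 2 mice with 22 cells against 4 mice with 44, since only 20GG79:6 of the dual line had the 5 cells first required. Of 11063 genes, 6 were higher in the dual line by edgeR's quasi-likelihood test (0.0542%), 0 were lower, and 1324 had an unadjusted p under 0.05. They were the actins Acta2 and Actg2 and the smooth muscle myosin Myh11 of the smooth muscle list, and the calcium store protein Casq2, the filamin Flna and the Z-line protein Pdlim3. Acta2 stood at 2696 and 2481 CPM in 20GG79:6 and 20GG79:1, against 61.2, 73.3, 135 and 57.6 CPM in 17E61:24, 18CB155:7, 19CB27:3 and 19CB4:5 (log2 fold change 4.85 ± 0.84 (SE), adjusted p = 0.0337). Myh11 stood at 2042 and 1529 CPM in 20GG79:6 and 20GG79:1, against 6.77, 10.6, 9.64 and 0 CPM in 17E61:24, 18CB155:7, 19CB27:3 and 19CB4:5 (log2 fold change 7.93 ± 1.18 (SE), adjusted p = 0.0191). The 2 sides did not overlap in either gene. Of the 5 smooth muscle markers tested, 3 were higher (median log2 fold change 4.92, against -0.21 over all genes), and of 25 goblet, 32 absorptive and 18 crypt genes none passed. In the dual line 16 of 22 cells were led by fibroblast or muscle markers, against 2 of the 44 in the other lines. With epithelial-led cells alone, 0 genes passed and 845 had an unadjusted p under 0.05, yet the fold changes stayed large, with log2 values of 7.19 for Myh11 and 4.28 for Acta2 (adjusted p = 0.522 for both). None passed with RLE size factors or without 17E61:24 either, while 4 passed without 18CB155:7, 10 without 19CB4:5, 13 without 19CB27:3, 45 without 20GG79:1 and 75 without 20GG79:6.

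Sex-linked transcripts were read in the only female with chosen cells. Xist, the RNA of the inactive X chromosome, was 64.6, 433 and 2155 CPM in the 3 epithelial-led cells of 20GG79:1, and no more than 19.4 CPM in any chosen cell of the males. The summed Y-linked genes Ddx3y, Eif2s3y, Uty and Kdm5d were 0 in 2 of its 3 epithelial-led cells and 336 CPM in the other (well A5), and 68.7 CPM in its fibroblast-led cell (well A16). The other cells of this mouse had a median of 2.01 CPM and reached 286 CPM. Epithelial-led cells of 17E61:24 had a median of 131 CPM. The cell in well A5 carried both Xist and Y-linked reads.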

How the data were processed

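The authors deposited 1 table of raw read counts per gene and cell, from Smart-seq2 libraries of single sorted cells; the submitters' processing notes name bcl2fastq, Bowtie, Bowtie2, Subread and featureCounts with GRCm38 (mm10), without versions. No source used here gives the annotation, the strand setting or filters on cells. The deposited counts held 1615 cells of 45388 to 1046988 gene counts (median 194180), spike-in rows excluded. Mouse, line, sex and plate came from the labels, and 0 columns were left unmapped.

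CPM were computed over all rows other than spike-ins, and 46005 of 46517 Ensembl identifiers were paired with symbols in GENCODE M21. The cells and the 23 gene lists (347 genes) were chosen with earlier results of these data known. Per-mouse sums of counts were tested with edgeR 4.0.16 in R 4.3.3 (TMM, filterByExpr, robust quasi-likelihood fit) with Benjamini-Hochberg adjustment over all genes tested, and standard errors are the log2 fold change divided by the square root of F. The mouse was a block between classes because both classes came from the same animals. The comparison of lines as first set (5 chosen cells a mouse) had too few mice, and a minimum of 3 was used. Cells of a mouse are not replicates. Nothing says how the mice were housed or processed together, so the p-values hold for these mice only. They rest on estimates of spread that share information across genes. The residual degrees of freedom were 1 between classes and 4 between lines, too few to measure the spread between mice gene by gene. The test between classes was tried on simulated counts with known changes. The simulated mice had no differences of their own, so the trial does not show how the test performs on these cells.

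Genes were named by rule: the 20 largest ratios among genes at 50 CPM or more and detected in at least 50% of chosen cells, list genes by level, and, in tests, genes past the threshold at 50 CPM or more in the higher class with the same direction in every mouse, up to the 10 largest in each direction and 4 a list. Promoter windows of 300 bases came from RefSeq (236 of 347 list genes matched). Alternatives were DESeq2 1.42.0, RLE size factors, no filter, other class limits, other depths, leaving out each mouse, no block and, added after seeing the data, epithelial-led cells alone and leaving out row J of 1 plate. Descriptions used Python 3.11.15, pandas 2.3.3, numpy 2.4.6, scipy 1.17.1 and matplotlib 3.10.9.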

Additional observations from a re-analysis of the deposited data

Results flagged for a closer look

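Of 17 marker levels and list sums compared over the per-mouse means of epithelial-led cells, 5 had 1 mouse far below the other 7. The 5 cannot be set against the 1 in 20 that chance would give for independent values. The means rest on 1 to 31 cells, Acta2 is part of the smooth muscle sum, and the 6 epithelial markers chose or split the cells. The 3 cells of the dual-line female 20GG79:1 had the lowest Epcam, at 696 CPM with 1513 CPM in the next mouse. They also had the lowest Muc13, at 135 CPM with 763 CPM next, and the lowest Cldn7, at 303 CPM with 805 CPM next. The single cell of 18CB39:3 had Acta2 at 0 CPM, with 76.9 CPM in the next mouse, and a smooth muscle sum of 0 CPM, with 113 CPM next. Means over 3 cells and 1 cell rest on little.

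Outside the rule, epithelial markers led in 14 further cells from 5 mice. Of these, 9 had Epcam under 50 CPM, 3 Krt8 under 100 CPM, 3 Cdh5 at 100 CPM or more and 2 Notch3 at 200 CPM or more. The rule thus left out some cells in which these markers led, but not all of them carried the whole set. In wells D24 and G16 of 19CB27:3 all 6 markers were detected. In well F4 of 20GG79:1, Lgals4 made up 3962 of the 4033 CPM and Krt8 was at 0 CPM. On the plate of 20GG79:6, the 13 row J cells outside the rule had a median Muc2 of 484 CPM, against 6.06 CPM in the other rows.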

How the results depend on the processing

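The number of genes that passed between goblet-type and absorptive-type cells was not stable. Against 20 as reported, DESeq2 called 256 (139 higher and 117 lower), RLE size factors 40 (16 higher and 24 lower, with a median log2 fold change over all genes of 0.15 in place of 0.29), and no filter on low counts 6. Other class limits gave 38 (Muc2 minimum of 1000 CPM), 32 (Slc26a3 minimum of 50 CPM), 18 (Slc26a3 minimum of 200 CPM) and 33 (against all chosen cells with Muc2 under 500 CPM). Without the replicate block (no mouse term), 0 genes passed, and 403 had an unadjusted p under 0.05. The pairing rests on both classes coming from the same mice. With epithelial-led cells alone 6 passed, and Aqp4 turned to a log2 fold change of 1.71 (adjusted p = 0.895 by edgeR). Without the row J cells other than J16, and with at least 1 cell of each class a mouse (3 mice), 0 passed. All 20 genes called kept their direction under each of these settings but 1, Aqp4 with epithelial-led cells alone, where 1 of the 20 was not tested. All 20 also passed under DESeq2 and RLE size factors, and 6 of 20 without the filter, where log2 fold changes were 4.82 to 9.98 in size. Depth of at least 100000 counts, a Muc2 minimum of 200 CPM, leaving out cells with markers of another class, and leaving out 17E61:24 or 20GG79:6 each left 1 mouse and could not be fitted. No other mouse entered this test, so leaving out another mouse could not change it.

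Between lines, DESeq2 called 432 genes (227 higher and 205 lower), RLE size factors 0 (1340 at an unadjusted p under 0.05), no filter 144, epithelial-led cells alone 0 and leaving out row J 2, against 6 as reported. All 6 kept their direction under each of these settings, with log2 fold changes of 4.84 to 9.03 under RLE size factors and 4.28 to 7.19 with epithelial-led cells alone. Leaving out 1 mouse gave 0 (without 17E61:24) to 75 (without 20GG79:6), with 45 without 20GG79:1, 13 without 19CB27:3, 10 without 19CB4:5 and 4 without 18CB155:7. Depth of at least 100000 counts and leaving out cells with markers of another class could not be fitted. The 2 comparisons use 2 and 6 mice, so their counts carry little weight, and causes of these differences were not tested.

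The number of chosen cells fell to 44 at a depth of 100000 counts or more, with 9 goblet-type and 2 with both. A Muc2 minimum of 200 CPM gave 8 cells with both and 1000 CPM gave 1. Epithelial-led cells alone gave 16 with neither. Genes at least 4-fold higher numbered 490 (without 18CB155:7) to 1074 (without 20GG79:6), against 648 as reported. With all cells pooled at equal weight they numbered 610, and 6 of the 20 named ratios moved by more than the spread between mice. By the 4 markers other than Epcam and Krt8, 48 cells were epithelial-led.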

Other observations

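The 3 epithelial-led cells with both Muc2 and Slc26a3, 2 from 17E61:24 and 1 from 18CB155:7, did not sit midway between the classes. Muc2 was no higher than 679 CPM in them, against a goblet-type minimum of 6494 CPM, and Spdef, Ern2 and Agr2 had medians of 5.76, 0 and 209.8 CPM. Secreted products were high in them, with medians of 2187 CPM for Clca1, 2843 CPM for Zg16 and 2584 CPM for the acute phase protein Saa1, which had a median of 12.9 CPM in absorptive-type cells. Of the absorptive list, Slc5a8 had a median of 0 CPM in them, against 318 CPM in absorptive-type cells, while others were high, with medians of 1745 CPM for Aqp8, 2347 CPM for Car4, 7248 CPM for Lypd8 and 2419 CPM for Krt20. The hemidesmosomal integrin Itgb4 and the laminin chain Lamb3 had medians of 1555 and 934 CPM, against 18.5 and 148 CPM in absorptive-type cells. With 3 cells these are values only.

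Claudins were unevenly spread over the cells, and the 6 that entered the test between goblet-type and absorptive-type cells did not pass. With 0.222% of all genes passing, this says little about claudins. Cldn3 was detected in 14 of 14 goblet-type, 17 of 18 absorptive-type and 14 of 16 cells with neither. Cldn2 and Cldn15, which form pores for cations, were detected in 11 of 14 and 12 of 14 goblet-type cells and 12 of 16 and 14 of 16 cells with neither, against 5 of 18 and 8 of 18 absorptive-type cells. Cldn23 was detected in 11 of 18 absorptive-type cells, against 7 of 14 goblet-type cells and 2 of 16 cells with neither, and Cldn4 reached 2633 CPM in an absorptive-type cell but was detected in only 9 of 51 epithelial-led cells. In the cells with Cdh5 at 100 CPM or more, Cldn15 was detected in 43.9%, Cldn2 in 3.13% and Cldn23 in 3.76%. These genes were singled out after their values were seen.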
